A study of Saccharomyces cerevisiae with 8 samples.

Results

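The HAP and RTG genes encode the yeast transcription regulators that set the expression of respiratory and citrate cycle genes. Members were taken by symbol: HAP1, HAP2, HAP3, HAP4, HAP5, RTG1, RTG2, RTG3 and MKS1, which makes 9 of the 5656 genes with a probe set of their own. They were read by 11 of the 9275 probe sets tested, 3 of which belong to HAP1. All were measured on Affymetrix arrays, 1 array per biological replicate, in haploid Saccharomyces cerevisiae of the W303 background. Every strain carried, per the labels, disruptions of hyp2 and anb1, the 2 yeast genes for the translation factor eIF5A, and a plasmid with human EIF5A1 in their place. In 4 replicates, labelled wild type, the plasmid gave the unaltered human protein and growth is described as normal, and in 4, labelled V81G, it gave a point mutant and growth is described as temperature sensitive. Cells were taken in early logarithmic growth at 25 °C, the permissive temperature, and the design describes the 4 RNA sources of a group as isogenic haploid strains. Levels below are log2 intensities, differences are V81G minus wild type on that scale, and a gene is said to have risen or fallen only at an adjusted p under 0.05 (limma, Benjamini-Hochberg over all probe sets).

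Hap2, Hap3 and Hap5 form a complex that binds CCAAT sequences in promoters, Hap2 through its own DNA contact and Hap3 and Hap5 through histone folds. The complex activates genes of respiration only when Hap4, whose synthesis is repressed by glucose, joins it, while Hap1 is a zinc cluster activator that works when heme, and so oxygen, is present. Rtg1 and Rtg3 are basic helix-loop-helix proteins that act as a pair in the retrograde pathway, which raises glutamate-supplying enzymes when mitochondria fail. Rtg2, a cytosolic ATP-binding protein, releases the pair by capturing Mks1, the inhibitor that otherwise keeps Rtg1 and Rtg3 out of the nucleus.

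Several measurements bear on the labels. HYP2, described as disrupted, read 15.41 to 15.43 in the arrays labelled wild type, within 0.05 of the highest value on each array and so at the ceiling of the scale, and 11.83 to 12.35 in those labelled V81G, and ANB1, also described as disrupted, read 13.92 to 14.42 over all 8 arrays, which goes against that description, so groups are called by their labels. The source is described as derived from W303a, of mating type a. Yet the alpha-factor gene MF(ALPHA)1 read 14.05 to 14.87 in wild type and 13.26 to 14.51 in V81G. STE2, the receptor gene of a cells, read 7.93 to 8.26 and 9.12 to 9.42. Its wild-type levels lay under 8.74, the 20th percentile of all probe sets, and so near background. The a-factor gene MFA2 read 10.68 to 11.80 and 11.66 to 11.76. MF(ALPHA)1 thus gave high signal in strains described as mating type a, and MFA2 gave signal too. The mean over 6 genes specific to a cells ranged from 8.95 to 9.42 across the wild-type arrays and from 9.65 to 9.80 across the V81G arrays, and 2 of the 6, STE2 and STE6, rose. That over 4 genes specific to alpha cells ranged from 11.24 to 11.76 and from 11.55 to 12.34, and 1 of the 4, SAG1, rose (by 1.77 ± 0.13). Transcripts of the mitochondrial genome also separated the groups. ATP6 read 11.88 to 12.10 in wild type and 7.31 to 7.63 in V81G, OLI1 read 14.48 to 14.85 and 9.89 to 10.69, and COX1 read 13.31 to 13.93 and 10.03 to 10.41, whereas COX3 read 9.95 to 10.80 and 10.64 to 12.37. These differences lie between the same arrays as the regulators' differences below, so their part cannot be told apart from that of the label V81G.

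None of the 9 regulator genes rose or fell between the groups, while 18 of 20 genes that the Hap complex is known to activate fell. Across all probe sets 17.6% passed the same limma test, and 29.6% had an unadjusted p under 0.05, against 3 of the 9 regulators (HAP3, HAP5 and RTG2). The regulators' differences ran from -0.47 for HAP3 to 0.35 for HAP5, with a median of 0.04, beside a median of -0.08 over all genes. That median is the value of a HAP1 probe set that may read other sequences too, and with the unshared HAP1 probe set it turns to -0.05. With the unshared probe set, HAP1 also has an unadjusted limma p under 0.05, which makes 4 of the 9. Differences of the regulators' size could be missed by this test. In simulated arrays where few probe sets changed, it called 4.48% of those changed by 0.5 and 67.2% of those changed by 1. There 9075 of 9275 probe sets were unchanged, whereas 17.6% passed in the data. The adjusted threshold was therefore stricter in the simulation, and its shares may be too low for these arrays. In RNA from whole cultures, fewer cells with a transcript and less of it per cell cannot be told apart. Groups did not overlap for HAP3, HAP5 and 1 probe set of HAP1, which is 3 of 11 probe sets against 22.7% of all.

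**Figure D1:**
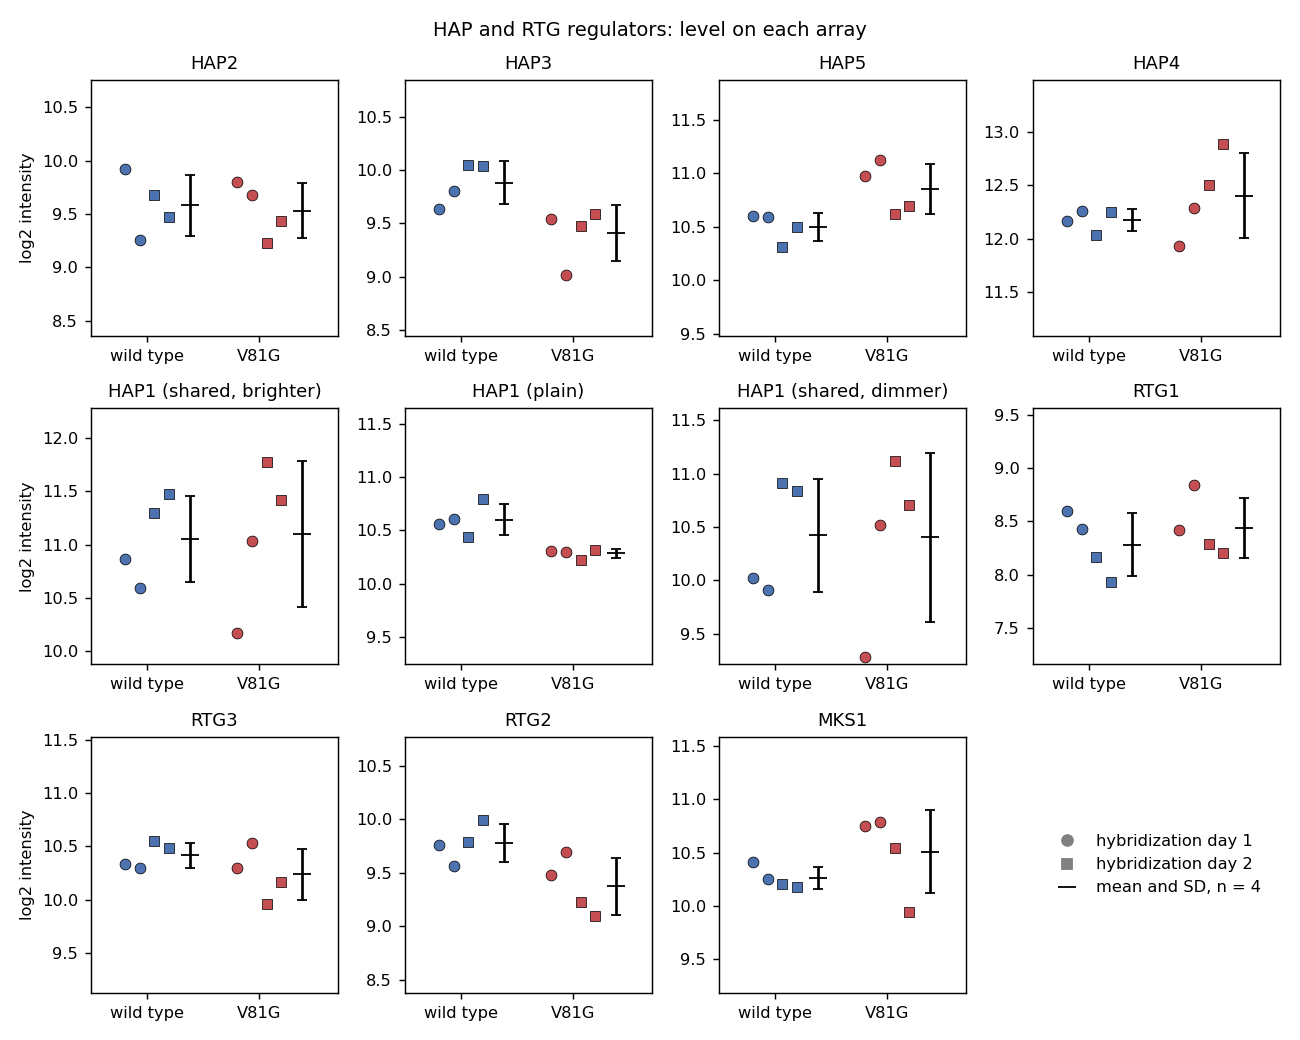
Log2 intensity (vertical axis, every panel spanning the same number of log2 units) of the 11 probe sets of the 9 regulator genes on the 4 wild-type and the 4 V81G arrays. Points are arrays, circles were hybridised on day 1 and squares on day 2, and bars give mean and SD; groups lie apart for HAP3, HAP5 and the plain HAP1 probe set.

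Of the CCAAT-binding subunits, HAP3 (YBL021C, chromosome II) was the lower one in V81G. Its levels were 9.64, 9.80, 10.05 and 10.04 in wild-type replicates 1 to 4 and 9.55, 9.02, 9.48 and 9.59 in the V81G replicates. Every V81G array lay below every wild-type array, with means of 9.88 ± 0.20 (SD, n = 4) and 9.41 ± 0.26. Over all arrays this came to -0.47 ± 0.16 (SE), short of the threshold (limma adjusted p = 0.0804). HAP5 (YOR358W, chromosome XV), the other histone-fold subunit, differed in the opposite direction, with 10.60, 10.59, 10.31 and 10.50 in wild type and 10.98, 11.13, 10.62 and 10.69 in V81G. Here every V81G array lay above every wild-type array, and the difference, 0.35 ± 0.15, missed the threshold (adjusted p = 0.141). HAP2 (YGL237C, chromosome VII), the subunit that contacts the bases, read 9.93, 9.25, 9.68 and 9.47 in wild type and 9.80, 9.67, 9.23 and 9.43 in V81G. Its groups overlapped, and the difference was -0.05 ± 0.18 (adjusted p = 0.899, 95% interval -0.46 to 0.36).

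The hybridization day mattered for these calls. Each group had its first 2 replicates run on day 1 and its last 2 on day 2, so the days are balanced and a day term leaves the differences as they are. The fluidics stations were not balanced within days. On day 1 both V81G arrays ran on station 2 and both wild-type arrays on station 1, so station and group cannot be told apart in values of day 1 alone, while on day 2 only wild-type replicate 4 ran on station 2. In a fit that took the day as a block 25.8% of all probe sets passed, and of 5656 genes 705 rose and 1033 fell. Of the 9 regulators 2 passed: HAP3 fell (limma adjusted p = 0.0272) and HAP5 rose (adjusted p = 0.0401). A block for the replicate number takes up the day too, and under it 10.2% of all probe sets rose and 9.81% fell. It left neither gene past the threshold (adjusted p = 0.0605 and 0.0805). HAP3 differed by -0.44 on day 1 and -0.51 on day 2, and HAP5 by 0.46 and 0.25, so each kept its direction on both days.

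HAP4 (YKL109W, chromosome XI), the glucose-repressed activating subunit, read 12.16, 12.26, 12.03 and 12.25 in wild type and 11.94, 12.28, 12.50 and 12.89 in V81G. The wild-type arrays stayed within a narrow range (SD 0.10), while the V81G arrays spread around it (SD 0.40), with replicate 1 below all of them and the other 3 above, replicate 2 only just. The difference was 0.23 ± 0.19 (adjusted p = 0.494), and its 95% interval ran from -0.20 to 0.66, that is, from 0.870-fold to 1.58-fold. On day 1 HAP4 differed by -0.10 and on day 2 by 0.55, neither past the threshold on its own day (adjusted p = 0.786 and 0.0894). The gap between the days, 0.65 ± 0.27, had an unadjusted limma p of 0.0391 and an adjusted p of 0.304.

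Over the 8 arrays the genes whose profiles lay closest to that of HAP4, each profile centred on its own mean, were SWE1, IDH2 and TSR3. Their root mean square distances from HAP4 were 0.112, 0.112 and 0.122 log2 units, against a median of 0.412 over 5647 genes. SWE1 encodes a kinase that delays mitosis, IDH2 a subunit of the mitochondrial isocitrate dehydrogenase and TSR3 an enzyme that modifies ribosomal RNA. All 3 were highest in V81G replicate 4, as HAP4 was, and none passed the group test (differences 0.19, 0.30 and 0.14).

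The 3 probe sets of HAP1 (YLR256W, chromosome XII) did not behave alike. The 1 with a plain name read 10.56, 10.61, 10.44 and 10.79 in wild type and 10.31, 10.30, 10.22 and 10.32 in V81G. All V81G arrays lay below all wild-type arrays, and the V81G arrays spread little (SD 0.04). The difference was -0.31 ± 0.12 (adjusted p = 0.104), it missed the threshold in the day-block fit too (adjusted p = 0.0702), and it was -0.28 and -0.35 on the 2 days. The other probe sets carry the suffix _f_, by which Affymetrix marks probes shared with similar sequences, so they may read more than HAP1. The brighter of them read 10.86, 10.59, 11.30 and 11.47 in wild type and 10.17, 11.03, 11.77 and 11.42 in V81G, a difference of 0.04 ± 0.33. The dimmer read 10.02, 9.91, 10.91 and 10.84 and then 9.28, 10.52, 11.12 and 10.70, a difference of -0.02 ± 0.39. Both were higher on day 2 than on day 1 in both groups. The day differences of 0.82 ± 0.19 (limma adjusted p = 0.0286) and 0.96 ± 0.23 (adjusted p = 0.0313) were the only ones past the threshold among the 11 probe sets, and 12.9% of all probe sets passed that test. The plain probe set differed between the days by -0.0011 ± 0.11 (adjusted p = 0.996). In the reference strain S288C the HAP1 gene is interrupted near its end by a Ty1 element, and where the 3 probe sets lie in the gene was not analysed here.

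RTG1 (YOL067C, chromosome XV), which encodes the smaller partner of the retrograde pair, was dim. Its levels were 8.60, 8.43, 8.17 and 7.94 in wild type and 8.42, 8.84, 8.29 and 8.21 in V81G, and both group means lay under 8.74, the 20th percentile of all probe sets, where background can shrink a difference. The groups overlapped, with a difference of 0.16 ± 0.19 (adjusted p = 0.652). RTG3 (YBL103C, chromosome II), which encodes the partner that carries the activation function, read 10.33, 10.30, 10.54 and 10.49 in wild type and 10.29, 10.53, 9.96 and 10.17 in V81G. V81G replicates 1, 3 and 4 were below every wild-type array, replicate 1 only just, while replicate 2 was level with the highest of them. It differed by 0.10 on day 1 and -0.45 on day 2, and by -0.18 ± 0.15 in all (adjusted p = 0.481).

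RTG2 (YGL252C, chromosome VII), the sensor that frees the pair, had levels of 9.76, 9.56, 9.79 and 10.00 in wild type and 9.48, 9.69, 9.22 and 9.10 in V81G. The groups overlapped through V81G replicate 2, and the difference was -0.40 ± 0.16 (adjusted p = 0.130). RTG2 differed by -0.07 on day 1 (adjusted p = 0.840) and fell by 0.73 on day 2 (adjusted p = 0.0243). With the fluidics station as a block, a term added after the data were seen, it fell by 0.49 (adjusted p = 0.0227). Within V81G station and day coincided, and that fit held no day term, so it does not stand apart from the day 2 result. On day 2 alone RTG2 and HAP3 passed, 2 of the 9 regulators against 19.9% of all probe sets, and with the station block RTG2 alone did, 1 of 9 against 19.9%. MKS1 (YNL076W, chromosome XIV), the inhibitor that Rtg2 captures, read 10.41, 10.25, 10.20 and 10.18 in wild type and 10.75, 10.79, 10.55 and 9.95 in V81G. Of the V81G arrays 3 lay above all wild-type arrays and replicate 4 lay below all of them. The difference was 0.25 ± 0.19 (adjusted p = 0.446), and without V81G replicate 4 it was 0.43 (adjusted p = 0.0721).

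**Figure D2:**
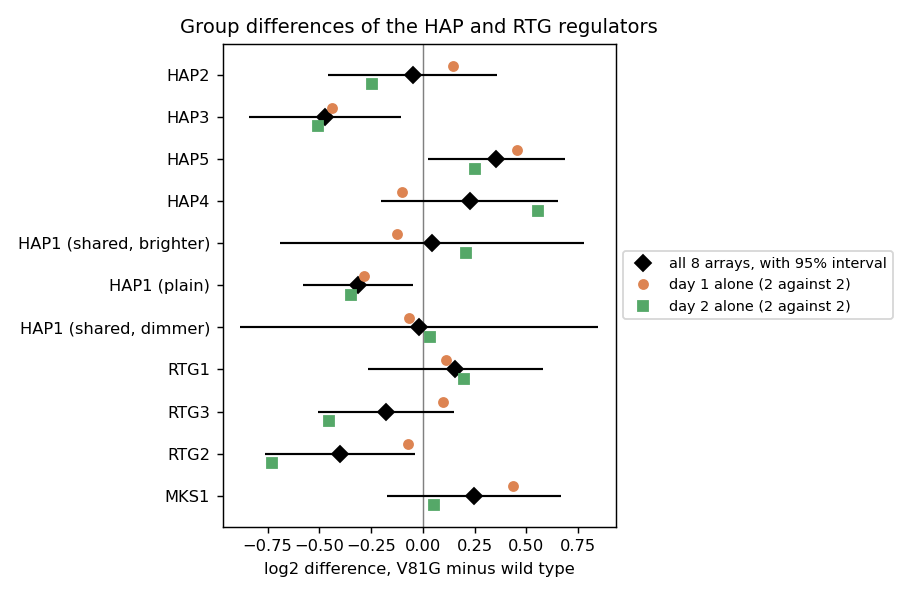
Log2 difference, V81G minus wild type (horizontal axis), of the 11 probe sets of the 9 regulator genes. Diamonds with lines give the limma estimate over all 8 arrays with its 95% interval, circles and squares the difference on day 1 and on day 2 alone; HAP3 and HAP5 lie on opposite sides of 0 on both days, and HAP4 and RTG2 show the widest gaps between days.

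A test of whether a group difference itself changed between the days called none of the 9 regulators, where 1.26% of all probe sets passed (limma interaction of group and day). An unadjusted p under 0.05 was found for 14.8% of all probe sets and for 3 of the 9, HAP4 (0.0391), RTG3 (0.0312) and RTG2 (0.0178). Their gaps, day 2 less day 1, were 0.65 ± 0.27, -0.55 ± 0.21 and -0.66 ± 0.22, with adjusted p of 0.304, 0.277 and 0.218. With the station in that fit, added after the data were seen, the gaps were 0.98 ± 0.48, -0.64 ± 0.37 and -0.34 ± 0.37 and none of the 3 had an unadjusted p under 0.05.

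Genes that the Hap2/3/4/5 complex is known to activate were lower in V81G as a list. Of 20 such genes, 18 fell, none rose and all 20 differences were negative, with a median of -1.19 beside -0.08 over all genes. Of all probe sets 8.59% fell, and of all genes 696 of 5656. The list holds many respiratory chain and citrate cycle genes and was written with earlier results of these data known. The largest falls were those of COX5A and COX4, both subunits of cytochrome c oxidase. COX5A fell by 2.00 ± 0.13 (4.01-fold, adjusted p = 2.9e-05) and COX4 fell by 1.86 ± 0.19 (3.63-fold, adjusted p = 2.4e-04). COX5A read 13.78, 13.73, 13.94 and 14.19 in wild type and 11.86, 11.91, 11.90 and 11.97 in V81G, so its V81G arrays lay close together and far below every wild-type array. SDH2, the iron-sulfur subunit of succinate dehydrogenase, fell by 1.76 ± 0.40 (adjusted p = 0.0136). The 2 genes that did not pass were CIT1, mitochondrial citrate synthase, at -0.20 ± 0.16 (adjusted p = 0.459) and ACO1, aconitase, at -0.50 ± 0.37 (adjusted p = 0.431). Both are also targets of Rtg1 and Rtg3. All of the other 16 genes that stand in neither the Hap1 nor the Rtg list fell, by 0.73 to 2.00.

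Relative to each gene's mean in wild type, the median of the list stood between -0.13 and 0.18 on the wild-type arrays. On V81G replicates 1 to 4 it stood at -0.93, -1.03, -1.29 and -1.43. HAP4 stood above its wild-type mean on 3 of those 4 arrays, with replicates 3 and 4 the highest, the same arrays on which the targets were lowest. HAP4 itself did not pass (limma adjusted p = 0.494) and Hap4 protein was not measured. A link between HAP4 and the targets was not tested. The list's median difference was -0.92 on day 1 and -1.48 on day 2. SDH2, KGD2, the E2 subunit of alpha-ketoglutarate dehydrogenase, and SDH4, a membrane anchor of succinate dehydrogenase, differed more between the groups on day 2 than on day 1. Their differences were -0.83, -0.89 and -0.32 on day 1 and -2.68, -2.44 and -1.91 on day 2 (interaction adjusted p = 0.0129, 0.0228 and 0.0228), and with the station in the fit none of the 3 gaps passed (adjusted p = 0.503, 0.535 and 0.503). SDH4, which fell by 1.11 ± 0.33 over all arrays (adjusted p = 0.0438), missed the threshold in the replicate-block fit (adjusted p = 0.0510), under quantile normalization (adjusted p = 0.114), on day 1 alone, and without V81G replicate 3 or 4 or wild-type replicate 1, 3 or 4 (adjusted p up to 0.114). KGD2, SDH4, CYC7, SOD2, CTT1 and ROX1 were chosen after their values were seen.

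**Figure D3:**
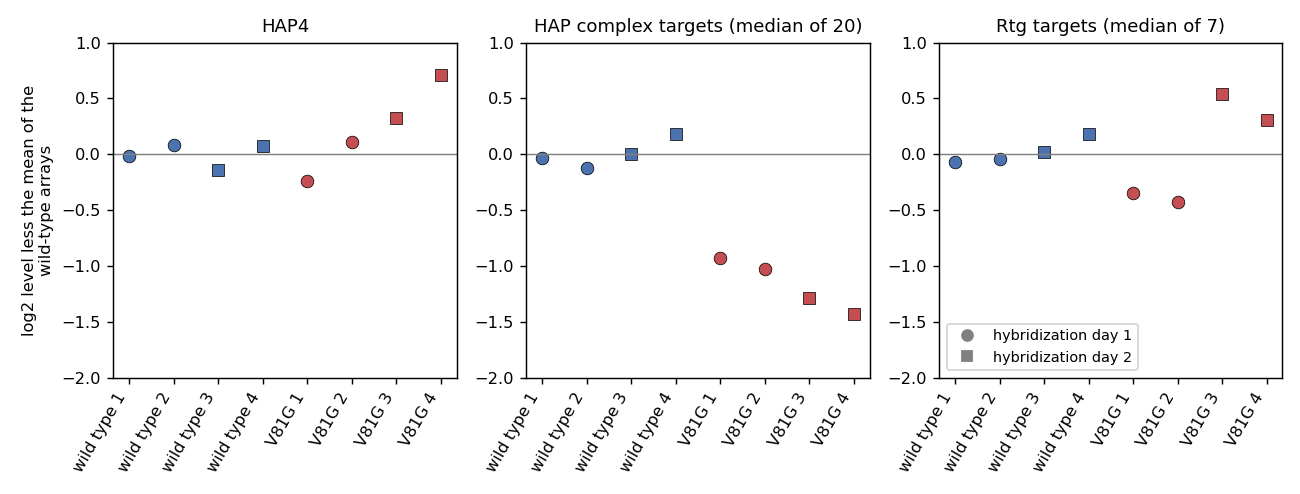
Level less the mean of the wild-type arrays (log2, vertical axis) on each of the 8 arrays for HAP4, for the median of 20 targets of the Hap complex and for the median of 7 targets of Rtg1 and Rtg3. Circles were hybridised on day 1 and squares on day 2; the Hap targets of V81G lie between -0.93 and -1.43, while HAP4 and the Rtg targets of V81G lie on both sides of 0.

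Genes known to be activated by Hap1 did not move together. Of 12, 3 fell, none rose and 9 did not pass, with a median of -0.25, where 696 of 5656 genes fell and 521 rose. Those that fell were CYC1, the main cytochrome c gene (1.33 ± 0.16, adjusted p = 5.9e-04), CYT1, cytochrome c1 (1.32 ± 0.32, adjusted p = 0.0193), and YHB1, a flavohemoglobin that detoxifies nitric oxide (0.93 ± 0.17, adjusted p = 0.0046). CYC1 and CYT1 are targets of the Hap complex too. A second, dimmer probe set of YHB1 differed by 0.20, and the fall of CYT1 missed the threshold without wild-type replicate 1 (adjusted p = 0.0646). In the day-block fit the catalase gene CTT1 fell (adjusted p = 0.0345) and ROX1, the repressor of hypoxic genes, rose (adjusted p = 0.0247), which makes 1 rise and 4 falls. In that fit 705 of 5656 genes rose and 1033 fell. CYC7, the second cytochrome c gene, rose by 1.00 on day 1 and fell by 0.91 on day 2 (adjusted p = 0.0157 and 0.0141), which leaves 0.04 ± 0.52 overall. SOD2, the mitochondrial superoxide dismutase gene, differed by 0.86 on day 1 and fell by 1.56 on day 2 (adjusted p = 0.100 and 0.0053). The day gaps of CYC7 and SOD2 passed the interaction test (adjusted p = 0.0072 and 0.0175), but not with the station in the fit (adjusted p = 0.406 and 0.527). Over the 12 genes the median difference was -0.03 for day 1 but -1.05 for day 2.

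None of the 7 known targets of Rtg1 and Rtg3 rose or fell over all arrays, and none had an unadjusted limma p under 0.05. Of all probe sets 17.6% and 29.6% did, so for 7 genes these counts say little. Differences of the 7 targets ran from -0.50 to 0.39, with 3 above 0 and 4 below. CIT2, the peroxisomal citrate synthase gene used as the standard readout of the retrograde pathway, read 11.11, 11.46, 11.94 and 12.17 in wild type and 11.32, 11.25, 12.75 and 12.33 in V81G. Both groups were higher on day 2, the groups overlapped, and the difference was 0.24 ± 0.36 (adjusted p = 0.728). DLD3, a D-lactate dehydrogenase gene, differed by -0.24 ± 0.31 and PYC1, pyruvate carboxylase, by -0.33 ± 0.26. IDH1 and IDH2, which encode the subunits of mitochondrial isocitrate dehydrogenase, differed by 0.39 ± 0.29 and 0.30 ± 0.19. On day 2 alone, where 19.9% of all probe sets passed, IDH1 (1.06, adjusted p = 0.0234) and IDH2 (0.59, adjusted p = 0.0397) rose. For day 1 alone, where 11.8% passed, ACO1 fell by 1.07 (adjusted p = 0.0300). The list's median on the V81G arrays was -0.35 and -0.42 on day 1 and 0.54 and 0.30 on day 2, beside -0.07 to 0.18 on the wild-type arrays.

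**Figure D4:**
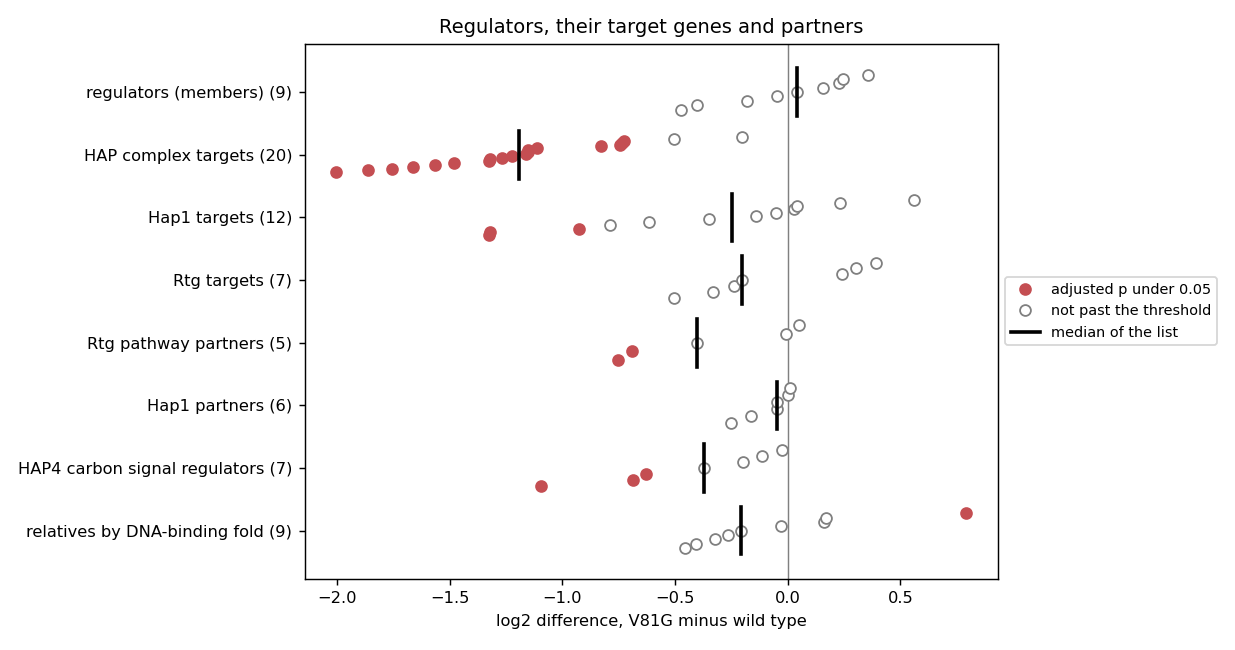
Log2 difference, V81G minus wild type (horizontal axis), of each gene in the 9 regulators and in 7 lists of targets, partners and relatives, with the number of genes in brackets. Filled points passed the limma test at an adjusted p under 0.05, open points did not, and bars are list medians (SSA1 and SSA2 among the Hap1 partners are ceiling readings); the Hap complex targets lie at a median of -1.19 and the regulators at 0.04.

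Of 5 genes for proteins that act on Mks1 or the retrograde pathway, 2 fell and none rose, where 696 of 5656 genes fell. TOR1, the nutrient-sensing kinase that restrains the pathway, fell by 0.75 ± 0.12 (adjusted p = 0.0030), although its dimmer probe set differed by 0.16. BMH1, a 14-3-3 protein that holds phosphorylated Mks1 in its inhibitory form, fell by 0.69 ± 0.16 (adjusted p = 0.0175), a call lost without wild-type replicate 3 (adjusted p = 0.0516). Its paralog BMH2 differed by -0.40 ± 0.19 (adjusted p = 0.192). BMH2 differed by 0.07 on day 1 and fell by 0.87 on day 2 (adjusted p = 0.0120). With the station as a block, which within V81G coincided with the day, BMH2 fell by 0.52 (adjusted p = 0.0314). GRR1, which targets free Mks1 for degradation, and LST8, a partner of Tor1, differed by 0.05 ± 0.16 and -0.01 ± 0.18.

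Of 7 genes that pass the glucose signal on to HAP4 and respiratory genes, 3 fell and none rose, with all 7 differences below 0 and a median of -0.37. Over all genes 696 of 5656 fell, with a median of -0.08. CAT8, a glucose-repressed activator of gluconeogenesis, fell by 1.09 ± 0.17 (adjusted p = 0.0025). Its V81G levels of 7.87 to 8.48 lay under 8.74, near background, and the fall was 0.73 on day 1 alone and 1.45 on day 2 alone. SNF4, the activating subunit of the Snf1 kinase, fell by 0.69 ± 0.12 (adjusted p = 0.0044), and GLC7, the phosphatase that counteracts it, fell by 0.63 ± 0.17 (adjusted p = 0.0291). GLC7 lost its call without any of 6 of the 8 arrays, with adjusted p up to 0.0801. SNF1 itself differed by -0.37 ± 0.15, HXK2 by -0.20 ± 0.17, the repressor MIG1 by -0.12 ± 0.14 and REG1, the regulatory subunit of Glc7, by -0.03 ± 0.17, none past the threshold.

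Of 6 genes for chaperones and RNA-binding proteins known to associate with Hap1, SSA1 and SSA2, Hsp70 genes, lay within 0.05 of the highest value on 8 and 7 of the 8 arrays, so the ceiling leaves no difference to read. None of the other 4 passed the test or had an unadjusted limma p under 0.05, where 17.6% and 29.6% of all probe sets did. HSC82 and HSP82, the Hsp90 genes, differed by -0.25 ± 0.11 and -0.16 ± 0.16, YDJ1 by -0.05 ± 0.16 and SRO9 by 0.01 ± 0.21. Among 9 genes for proteins with the same folds (basic helix-loop-helix and histone fold), not all of them transcription regulators, DPB3 rose by 0.79 ± 0.13 (adjusted p = 0.0031). Of all probe sets 8.96% rose, and of all genes 521 of 5656. It encodes a histone-fold subunit of DNA polymerase epsilon, and read 9.57 to 9.74 in wild type and 10.26 to 10.71 in V81G. The other 8, which include CBF1, INO2, INO4, PHO4 and TYE7, did not pass, with differences between -0.45 and 0.17.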

How the data were processed

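The authors deposited 1 table of probe-set intensity values on a linear scale for 8 arrays, made with RMA per the submitters' processing notes, with no version given. Any scaling after RMA is not stated in these sources, and array medians ran from 1099 to 1190. The 8 array run sheets (unit: other values, deposited by the authors) gave the hybridization day, the fluidics station and a single chip lot. After log2, 60 control probe sets were left out and 9275 tested with limma 3.58.1 in R 4.3.3 (lmFit, eBayes, two-sided tests, a term for group alone, Benjamini-Hochberg over all probe sets). Errors of levels are SD and those of differences SE. The method was tested on simulated data with few changed probe sets, where it called 97.0% of those changed by 2 and fewer of those changed less.

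Symbols were read from the annotation of the platform and brought up to date through RefSeq gene IDs (assembly R64), which gave 6504 probe sets 1 symbol and 328 several, with 2443 not listed. The probe set of highest mean stood for a gene. The members and the 7 lists (62 genes, all measured) were chosen with earlier results of these data known. Named genes were the members, up to 3 rises and 3 falls per list, all genes of lists under 8, the 3 profiles nearest to HAP4, and the genes that check labels, with 6 added for their values. Alternatives were a day, replicate or station block, single days, filters at the 20th and 40th percentile (8.74 and 9.73), 3 scalings, an added 64 before log2, 2 variance priors, the dimmest probe set per gene and leaving out each array. The station, added after the data were seen, was also put in the interaction fit.

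Deviations from group means correlated across probe sets at 0.228 to 0.436 between arrays of equal replicate number. Such arrays also share a day, and other pairs of the same day gave 0.222 to 0.343. These ranges overlap, so a pairing by number cannot be told from the shared day. The main fit held no term for pairing, and the replicate block was an alternative. No pair of arrays held identical values throughout. Replicates are labelled biological, with no word on whether cultures were grown apart in time, so p-values measure the spread between these samples. Precision is limited by the number of arrays, 4 per group. Within V81G, arrays of the same day correlated at 0.983 and 0.991, and those of different days at 0.953 to 0.957. In wild type the values were 0.978 and 0.984, and 0.954 to 0.981. The test with group alone takes the 4 arrays of a group as independent, which for V81G the shared days may not allow.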

Additional observations from a re-analysis of the deposited data

Results flagged for a closer look

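In 5 genes of the target lists the group difference itself differed between hybridization days, by limma's interaction of group and day. This test takes no account of the fluidics station, which on day 1 was 2 for both V81G arrays and 1 for both wild-type arrays. Day 2 less day 1, it was -1.55 ± 0.23 for KGD2, -1.85 ± 0.24 for SDH2 and -1.59 ± 0.24 for SDH4, whose differences were negative on both days. It was -1.91 ± 0.21 for CYC7 and -2.42 ± 0.33 for SOD2, whose differences were positive on day 1 and negative on day 2. In all 5 the shift came mainly from the V81G arrays: SOD2 read 12.59 and 12.95 on day 1 and 10.75 and 10.92 on day 2 in V81G, against 12.23 and 11.60 and then 12.24 and 12.55 in wild type. With the station in the fit, which leaves 3 residual degrees of freedom and where the station's effect rests on wild-type replicates 3 and 4, none of the 5 passed. The gaps were then -1.21 ± 0.39 for KGD2, -1.47 ± 0.39 for SDH2, -1.58 ± 0.44 for SDH4, -1.94 ± 0.36 for CYC7 and -1.95 ± 0.61 for SOD2 (adjusted p from 0.406 to 0.535), and 3 of 9275 probe sets passed in all, against 117 without the station. None of the 11 regulator probe sets had an array that stood apart from the other 3 of its group by Dixon's criterion at 95%, in 22 such groups, where chance flags about 1 in 20.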

How the results depend on the processing

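No regulator passed in 20 of the 23 alternatives tried, among them all 8 that left out an array. The count was 2 with the day as a block (HAP3 and HAP5), 2 on day 2 alone (HAP3 and RTG2) and 1 with the station as a block (RTG2), against 25.8%, 19.9% and 19.9% of all probe sets. Of the 20 Hap complex targets, 14 to 18 passed in the alternatives run. Passing genes in the other lists numbered 5 in the day-block fit and 7 on day 2 alone for Hap1 targets (3 over all arrays), 1 on day 1 and 2 on day 2 for Rtg targets (0), 1 on day 1 or by the dimmest probe set, 1 to 2 without an array and 3 on day 2 or in the station-block fit for Rtg partners (2), 1 with a trended prior for Hap1 partners (0, the gene is HSC82), 1 on day 1 for the glucose signal genes (3), and 2 in the day-block fit, 0 on day 1 and 2 on day 2 for relatives by fold (1). These counts leave out smaller moves. GLC7 lost its call in most fits that left out an array, so fewer than 3 glucose signal genes passed there. With the station as a block CTT1, a Hap1 target, also fell (limma adjusted p = 0.0173). The replicate block ended the call of SDH4 (fall of 1.11, adjusted p = 0.0510) and changed no other call among the genes named. Values that changed sign lay mostly near 0. On day 1 alone they were HAP2 0.15, HAP4 -0.10, the brighter shared HAP1 probe set -0.12, RTG3 0.097, CIT2 -0.0018, IDH1 -0.28, BMH2 0.066, LST8 0.29, HSP82 0.061, YDJ1 0.24, SSA2 0.0059, MIG1 0.11, REG1 0.23 and SOD2 0.86. On day 2 alone they were the dimmer shared HAP1 probe set 0.032, DLD3 0.15, ACO1 0.060, GRR1 -0.031, SRO9 -0.27 and CYC7 -0.91. Centring on the median outside chromosome VIII gave HAP2 0.0029, the dimmer shared HAP1 probe set 0.035, LST8 0.045, YDJ1 0.0039, SSA2 0.0037 and REG1 0.027. Centring on the median of all probe sets gave SSA1 -0.035 and SRO9 -0.029, and quantile normalization gave CIT1 0.013, LST8 0.052, HSP82 0.0071 and YDJ1 0.16. The station block gave the dimmer shared HAP1 probe set 0.067, GRR1 -0.014, SRO9 -0.012 and CYC7 -0.25, and the dimmest probe set YHB1 0.20 and TOR1 0.16. Leaving out 1 array gave -0.16 to 0.065 for HAP2, -0.18 to 0.35 for the brighter shared HAP1 probe set, -0.25 to 0.36 for the dimmer shared HAP1 probe set, -0.039 to 0.46 for CIT2, -0.54 to 0.052 for DLD3, -0.051 to 0.12 for GRR1, -0.13 to 0.15 for LST8, -0.18 to 0.063 for YDJ1, -0.00067 to 0.0045 for SSA1, -0.20 to 0.14 for SRO9, -0.15 to 0.095 for REG1 and -0.34 to 0.46 for CYC7. Those of SSA1 and SSA2 are ceiling readings. The causes were not tested. Signals near background, as for RTG1 and CAT8, limit what a difference can show, and 4 arrays per group left 95% intervals about the regulators that reach to 0.88 on the log2 scale.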
